A study of Rattus norvegicus with 26 samples.

Results

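Genes for the mitochondrial ribosome and for the upkeep and transcription of mitochondrial DNA (mtDNA) were examined in the dentate gyrus (DG) of rats given a chemotherapy agent with or without a senolytic. The members were taken by name: every gene whose symbol begins with Mrpl or Mrps and a digit, and 15 further genes listed by symbol, with the rows of a gene summed. This gave 89 of the 17910 genes in the table. Of these, 45 belong by name to the large subunit series (Mrpl), 29 to the small subunit series (Mrps), and 15 are the listed genes. Below, the classes large subunit, small subunit and mitoribosomal follow these names, not the place of each protein in the structure. A mean of at least 5 normalized counts was reached by 87 of the 89, and these entered the tests together with all other genes past that level, 15595 in all. Mrpl36 and Mrpl53 did not reach it, with highest values of 13.2 and 6.70 normalized counts in any rat. The table spells 3 further genes of the large subunit in lower case (mrpl9, mrpl11 and mrpl24), so that the rule does not take them, and the smallest of their p-values was 0.0208, for mrpl11 between Dox + ABT and Veh.

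The Veh group held 10 rats, the Dox group 8 and the Dox + ABT group 8, with 1 library per rat from the DG of 1 hemisphere. All were male F344 rats, 6 months old. Dox rats received doxorubicin, an anthracycline that binds DNA and inhibits topoisomerase II, at 2 mg/kg by intraperitoneal injection once a week for 4 weeks. Dox + ABT rats received the same course and, by gavage, the senolytic ABT-263, which blocks anti-apoptotic proteins of the Bcl-2 family, at 12 mg/kg on 5 days in a row in alternate weeks. Veh rats received vehicle by gavage, also on 5 days in a row in alternate weeks. The authors describe no gavage for Dox rats and no injection for Veh rats. Veh rats belonged to an ongoing study of senolytics and brain aging, so that membership of that study and the lack of treatment cannot be told apart. Both comparisons with Veh share the same 10 Veh rats.

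Mitochondria keep a small circular genome that encodes subunits of the respiratory chain and ATP synthase together with ribosomal and transfer RNAs. All proteins of the mitochondrial ribosome (the mitoribosome) are encoded in the nucleus, made in the cytosol and imported, and the mitoribosome translates the mRNAs of mtDNA. The genome is copied by the polymerase Polg with the helicase Twnk and the single-strand binding protein Ssbp1, is packaged by Tfam, and is transcribed by the RNA polymerase Polrmt with Tfam and Tfb2m. In neurons, whose synapses draw heavily on ATP, the coactivator Ppargc1a and the transcription factor Nrf1 are known regulators of such nuclear genes.

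Promoters are shown for the 3 members that passed p under 0.01 in a comparison (Mrpl57, Mrpl18 and Mrpl37) and for Tfb2m, which passed it once the kind of library described below was a covariate. Each runs 5′ to 3′ along the gene, from 250 bases before its start to 50 bases after it, and was taken from RefSeq on the GRCr8 build. Capitals mark matches, on either strand, to 4 motifs that were searched: GCGCANGCG for NRF1, CCGGAAGT for the GABP (ETS family) factors, AAGATGGCG for YY1 and TCAAGGTCA for the estrogen-related receptors.
Mrpl57 (chr15:36086207-36086506, plus strand): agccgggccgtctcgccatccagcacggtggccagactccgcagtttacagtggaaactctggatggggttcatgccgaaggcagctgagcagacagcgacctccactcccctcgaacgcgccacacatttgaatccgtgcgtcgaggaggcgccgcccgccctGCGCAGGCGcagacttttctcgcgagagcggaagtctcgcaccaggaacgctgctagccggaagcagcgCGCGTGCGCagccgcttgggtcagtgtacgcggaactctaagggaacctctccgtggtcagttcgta
Mrpl18 (chr1:50384702-50385001, plus strand): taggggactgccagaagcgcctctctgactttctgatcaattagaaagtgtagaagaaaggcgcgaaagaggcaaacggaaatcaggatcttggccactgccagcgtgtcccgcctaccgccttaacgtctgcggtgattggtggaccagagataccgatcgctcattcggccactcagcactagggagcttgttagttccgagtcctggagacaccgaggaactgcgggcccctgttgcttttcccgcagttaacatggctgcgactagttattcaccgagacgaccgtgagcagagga
Mrpl37 (chr5:127074918-127075217, minus strand): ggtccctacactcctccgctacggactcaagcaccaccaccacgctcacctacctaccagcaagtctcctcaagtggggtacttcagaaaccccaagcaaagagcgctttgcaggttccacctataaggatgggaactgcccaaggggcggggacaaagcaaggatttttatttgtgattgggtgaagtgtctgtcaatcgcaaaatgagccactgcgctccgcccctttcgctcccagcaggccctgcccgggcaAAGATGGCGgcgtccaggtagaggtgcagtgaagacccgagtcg
Tfb2m (chr13:93828545-93828844, minus strand): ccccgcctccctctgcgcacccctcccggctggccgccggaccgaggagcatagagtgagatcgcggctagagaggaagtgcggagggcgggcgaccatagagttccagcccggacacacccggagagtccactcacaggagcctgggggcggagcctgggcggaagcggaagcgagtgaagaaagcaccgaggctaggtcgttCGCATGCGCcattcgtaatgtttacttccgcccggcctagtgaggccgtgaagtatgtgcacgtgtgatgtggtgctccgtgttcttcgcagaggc

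The Mrpl57 promoter held 2 matches to the NRF1 motif, and the Tfb2m promoter held 1. The Mrpl37 promoter held 1 match to the YY1 motif, which began 6 bases after the start, and the Mrpl18 window held none of the 4 motifs. A promoter was found by symbol for 72 of the 89 members, 59 of them mitoribosomal. Mrpl14 and Mrps21 have 2 promoters each in the table, which makes 61 mitoribosomal promoters. Of these 61, 10 (16.4%) held the NRF1 motif, beside 11.6% of the 12243 promoters of genes tested and 5.80% of all 33469 promoters of this length. The GABP motif stood in 8 (13.1%), beside 7.07% and 3.81%, and the YY1 motif in 9 (14.8%), beside 3.16% and 1.73%. The motif of the estrogen-related receptors stood in 0 of the 61, beside 0.335% and 0.433%. At least 1 of the motifs was found in 25 of the 61 promoters. Among the 13 listed genes with a promoter, Polrmt and Tfb2m held the NRF1 motif, Polg and Tfam the GABP motif and Mgme1 the YY1 motif.

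Values are normalized counts, read counts that the authors estimated per transcript row and divided by a factor for each library. Depth, estimated from the step between low values, was 10166100 to 24326700 reads per library. Libraries of each group fell into 2 kinds by the sign of the first principal component of deviations from the group means, which was computed without the members and held 28.3% of the variance within groups. From Veh, Dox and Dox + ABT in turn came 4, 5 and 6 libraries of the first kind, 15 in all, and 6, 3 and 2 of the second, 11 in all, and the labels name no batch that matches them. Estimated depth was 10166100 to 18714100 reads in the first kind and 16214800 to 24326700 in the second, and cytosolic ribosomal protein genes took 0.667% to 1.32% and 1.10% to 2.23% of normalized counts. Dox + ABT 3 scored 0.33, next to the border at 0, and was also moved to the first kind. The granule cell markers Prox1, C1ql2, Dsp, Calb1 and Pdzd2 were present in every group, with a summed level of 9412 to 14717 normalized counts per rat, and C1ql2 was lower in Dox + ABT than in Veh by limma's test (log2 difference -0.46 ± 0.12 (SE), p = 0.000697), at -0.16 within the first kind (limma, p = 0.194) and -0.72 within the second (limma, p = 0.00246). The other 4 did not pass, 2 of the 5 were on the higher side, and the median of the 5 was -0.07. RNA came from whole DG tissue, so fewer cells of a type and less RNA per cell cannot be told apart.

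Little of the mitoribosome passed the test after doxorubicin. Between Dox and Veh, 1 of the 87 members (Mrpl57, higher in Dox) passed p under 0.01 in limma's test, where 2.87% of all genes did. By direction, 1 member was higher against 1.02% of all genes, and 0 were lower against 1.85%. At p under 0.05 there were 4 members (Mrpl57, Top3a, Mrps7 and Tfb2m) against 10.2% of all genes. The smallest Benjamini-Hochberg adjusted p of a member was 0.260, over all 15595 genes. No member had Dox values wholly apart from Veh values, as 0.0192% of all genes had. With a covariate for the kind of library 2 members passed p under 0.01, Mrpl57 and Tfb2m, both higher in Dox, against 2.55% of genes.

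Mrpl57, also known as Mrp63, is a protein of the large subunit. Its normalized count ranged from 379 to 545 with a median of 469.8 in Veh, from 498 to 973 with a median of 574 in Dox, and from 376 to 802 with a median of 427 in Dox + ABT. All 8 Dox rats lay above the Veh median, although the ranges of the groups overlapped, and the highest values came from a few libraries of the first kind. The difference between Dox and Veh was 0.46 ± 0.14 on the log2 scale (SE, limma, p = 0.00332, adjusted p = 0.260). It was 0.69 ± 0.21 within the first kind of library (limma, p = 0.00349) and 0.14 ± 0.12 within the second (limma, p = 0.269), and the difference between these values was not tested. Without Dox 2, the highest Dox rat, it was 0.37 (limma, p = 0.0122). The gene has 2 transcript rows, which differed by 0.31 ± 0.13 (limma, p = 0.0263) and 0.68 ± 0.22 (limma, p = 0.00436). In the GRCr8 annotation Mrpl57 overlaps Ska3 by 107 bases, and whether the authors counted by strand is not given in the sources used here. Dox also lay above Dox + ABT by 0.35 ± 0.15 (limma, p = 0.0272), and Dox + ABT above Veh by 0.11 ± 0.14 (limma, p = 0.458).

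The other mitoribosomal genes differed little between Dox and Veh. Over the 72 tested genes the median log2 difference was -0.05, with 55 lower and 17 higher, beside a median of 0.005 over all genes tested, of which 48.9% were lower. The large and the small subunit had the same median of -0.05, with 33 of 43 and 22 of 29 genes lower. The difference lay within 1 SE of 0 for 28 of the 43 genes of the large subunit and 20 of the 29 of the small subunit. Mrps7, the counterpart of a bacterial protein that starts the folding of the small subunit's RNA, ranged from 408 to 656 in Veh with a median of 563 and from 429 to 552 in Dox with a median of 471. All 8 Dox rats lay below the Veh median within the range of Veh, with a log2 difference of -0.22 ± 0.08 (limma, p = 0.0124, adjusted p = 0.368). Mrpl42 had the lowest log2 difference of any member, -0.43 ± 0.23 (limma, p = 0.0738).

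**Figure D1:**
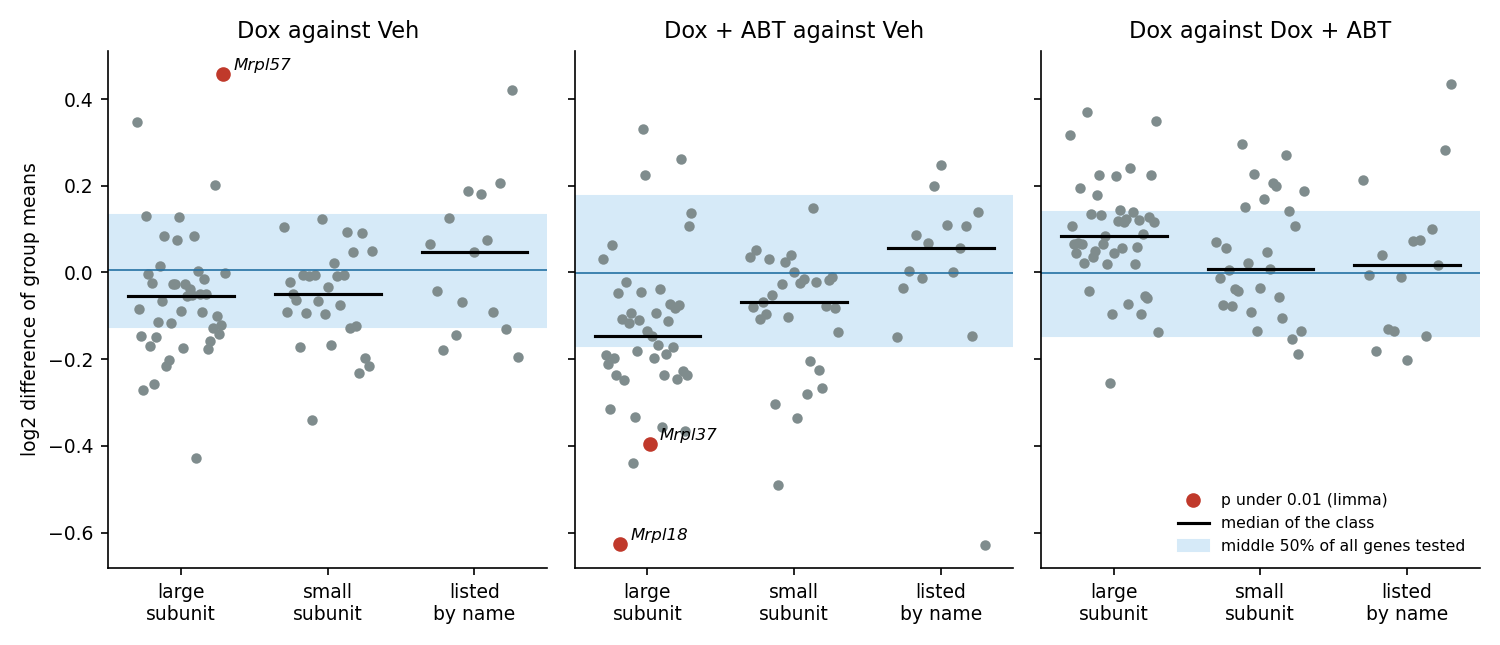
Each point is the log2 difference of group means of 1 member in 1 of 3 comparisons, by class, with the median of the class as a line and the middle 50% of all genes tested as a band. Mrpl57 (0.46) is the 1 marked gene between Dox and Veh, and Mrpl18 (-0.63) and Mrpl37 (-0.40) are marked between Dox + ABT and Veh.

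Between Dox + ABT and Veh, Mrpl18 and Mrpl37 passed p under 0.01, both lower in Dox + ABT. These are 2 of 87 members where 7.84% of all genes passed, with 0 higher against 3.89% and 2 lower against 3.95%. At p under 0.05 there were 13 members against 22.5% of all genes, 12 of them lower and Mrpl51 higher. The smallest adjusted p of a member was 0.109, and 0 members and 0% of all genes had groups that did not overlap. With a covariate for the kind of library 1 member passed (Mrpl18) against 3.38% of genes, and with Dox + ABT 3 moved to the first kind there were 0.

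Mrpl18 belongs to the family of ribosomal proteins that contact the 5S rRNA in bacteria, and has been tied to import of cytosolic 5S rRNA into mammalian mitochondria. Its normalized count ranged from 409 to 962 with a median of 755 in Veh, from 425 to 859 with a median of 440.5 in Dox and from 351 to 541 with a median of 421 in Dox + ABT. All 8 Dox + ABT rats lay below the Veh median, while the Veh and Dox rats split into a high and a low set. The difference between Dox + ABT and Veh was -0.63 ± 0.18 on the log2 scale (limma, p = 0.00195, adjusted p = 0.109), and that between Dox and Veh was -0.26 ± 0.18 (limma, p = 0.172). Within the first kind of library the Dox + ABT difference was -0.09 ± 0.12 (limma, p = 0.461), and within the second, with 2 Dox + ABT rats, it was -1.04 ± 0.13 (limma, p = 1.97e-06). With the kind as a covariate it was -0.41 ± 0.13 (limma, p = 0.00383), and with Dox + ABT 3 moved -0.26 ± 0.11 (limma, p = 0.0194).

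Mrpl37, another large subunit protein, ranged from 619 to 1286 with a median of 922 in Veh, from 657 to 1109 with a median of 784 in Dox and from 568.4 to 894 with a median of 657 in Dox + ABT. The groups overlapped, with all 8 Dox + ABT rats below the Veh median. The Dox + ABT difference from Veh was -0.40 ± 0.14 (limma, p = 0.00651, adjusted p = 0.116), against 0.01 ± 0.12 within the first kind of library (limma, p = 0.956) and -0.68 ± 0.17 within the second (limma, p = 0.00111). With the kind as a covariate it was -0.27 ± 0.12 (limma, p = 0.0262). It no longer passed p under 0.01 when 1 of 10 rats was left out (Dox + ABT 3, 5, 6, 11 or 12, or Veh 1, 2, 3, 4 or 9), with p up to 0.0170. Mrpl37 overlaps Ssbp3 by 1290 bases in GRCr8.

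**Figure D2:**
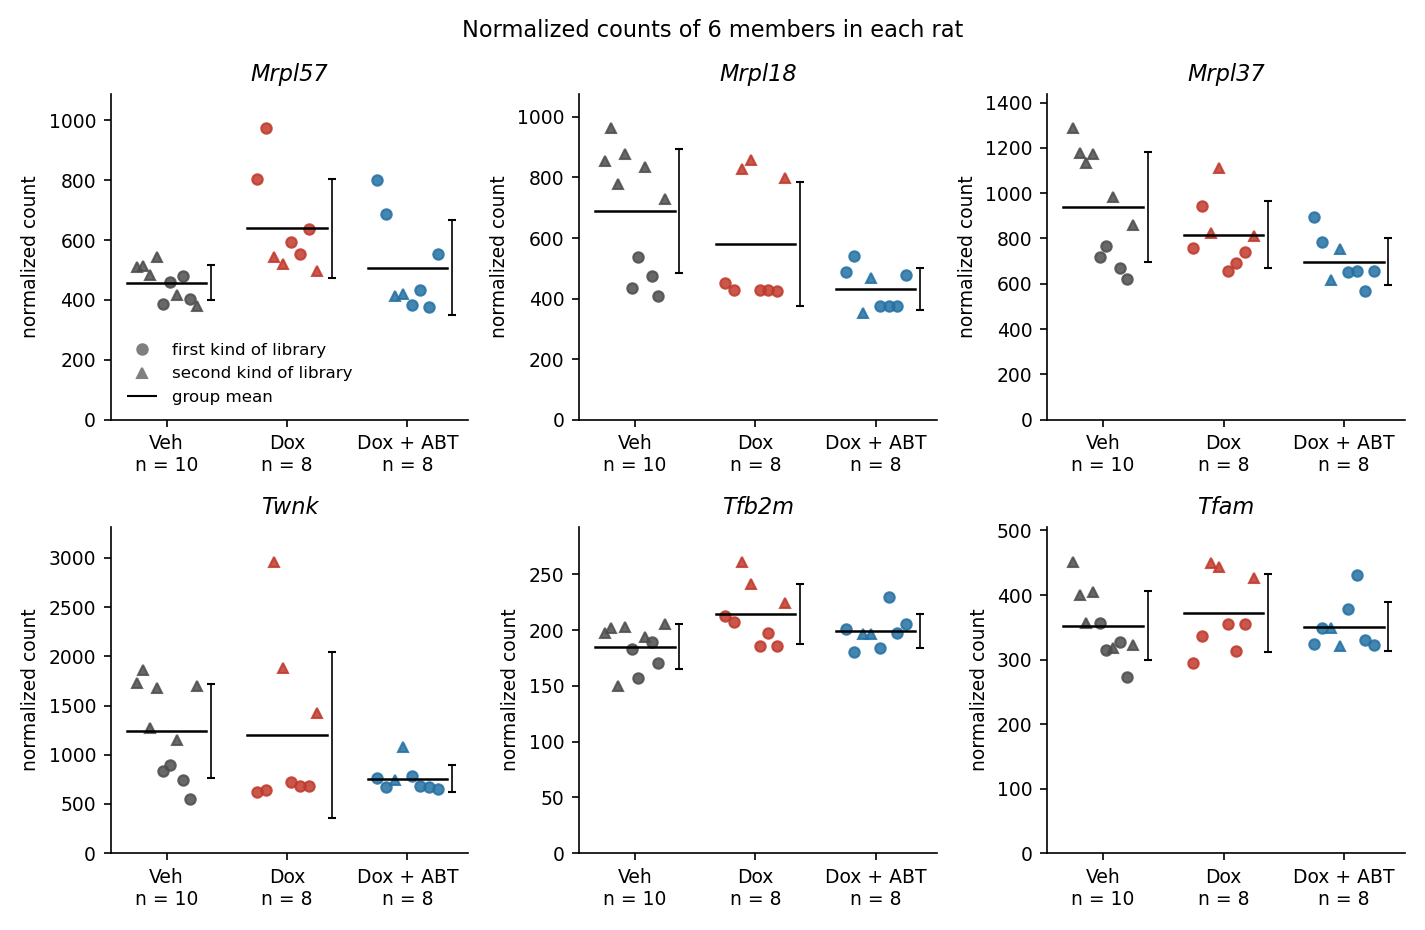
Normalized counts of 6 members in each rat, by group, with circles for the first and triangles for the second kind of library, the group mean as a line and a bar of 1 SD on either side. Mrpl18 lies at 730 to 962 in the Veh and Dox triangles and at 351 to 541 in all other rats, and Mrpl57 reaches 973 in Dox.

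Of the 11 other members past p under 0.05 in Dox + ABT, 5 carry names of the small subunit series. Mrps18a, Mrps18b and Mrps18c are paralogs of 1 bacterial protein, with Mrps18a placed in the large subunit. Mrps18c ranged from 159 to 395 with a median of 310 in Veh, from 166 to 356 with a median of 187 in Dox and from 191 to 220 with a median of 196 in Dox + ABT. The Dox + ABT rats lay in a narrow band inside the range of Veh, and the log2 difference was -0.49 ± 0.18 (limma, p = 0.0102). Mrps18b differed by -0.30 ± 0.12 (limma, p = 0.0203) and Mrps18a by -0.05 ± 0.10 (limma, p = 0.603). Mrps25 differed by -0.34 ± 0.15 (limma, p = 0.0295), Mrps30 by -0.20 ± 0.10 (limma, p = 0.0472), Mrpl43 by -0.24 ± 0.09 (limma, p = 0.0145) and Mrpl16 by -0.24 ± 0.11 (limma, p = 0.0339). In GRCr8 the whole span of Mrpl16, 4813 bases, lies within that of Stx3. Within the first kind of library the differences of Mrps18c, Mrps18b, Mrps30 and Mrpl43 were 0.04, 0.03, 0.10 and 0.02, and within the second -0.85, -0.58, -0.55 and -0.48.

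Over the 72 mitoribosomal genes the median log2 difference between Dox + ABT and Veh was -0.10, with 58 lower, beside -0.001 over all genes, of which 50.1% were lower. The large subunit had a median of -0.15 (36 of 43 lower) and the small subunit -0.07 (22 of 29 lower). The difference lay within 1 SE of 0 for 12 of 43 and 18 of 29 genes.

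Between Dox and Dox + ABT, 0 of 87 members passed p under 0.01, against 4.03% of all genes (2.32% higher and 1.71% lower in Dox), and the smallest adjusted p was 0.290. At p under 0.05 there were 3 members (Mrpl43, Mrpl57 and Mrps18b), all higher in Dox, against 12.7% of all genes. Groups that did not overlap were found for 0 members and 0.135% of genes, and with a covariate for the kind of library 0 members passed against 5.08%. The median over the 72 mitoribosomal genes was 0.07, with 51 higher in Dox, and that over all genes -0.001. The large subunit had a median of 0.08 and the small subunit 0.007. Mrpl43 lay at 612 to 798 with a median of 654 in Dox and at 488 to 739 with a median of 564 in Dox + ABT, and all 8 Dox rats lay above the Dox + ABT median although the ranges overlapped (log2 difference 0.24 ± 0.10, limma, p = 0.0177).

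The kind of library moved with the mitoribosomal genes. The median of the 72 log2 differences between the second and the first kind was 0.17, with 56 genes higher in the second kind, beside 0.005 over all genes tested. It was 0.39 among Veh rats, 0.14 among Dox rats and -0.06 among Dox + ABT rats, and 22 of the 72 genes (30.6%) were higher in the second kind in each group, as were 23.3% of all genes tested. As the difference of each rat from the Veh mean, the median of the 72 genes was -0.45 to -0.09 in the 4 Veh libraries of the first kind and -0.02 to 0.30 in the 6 of the second. In Dox it was -0.23 to 0.03 in the first kind and -0.03 to 0.16 in the second, and in Dox + ABT it was -0.22 to 0.07 in the first kind and -0.22 and -0.09 in the second. Veh held the larger share of the second kind, 6 of 10, and Dox + ABT the smaller, 2 of 8.

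**Figure D3:**
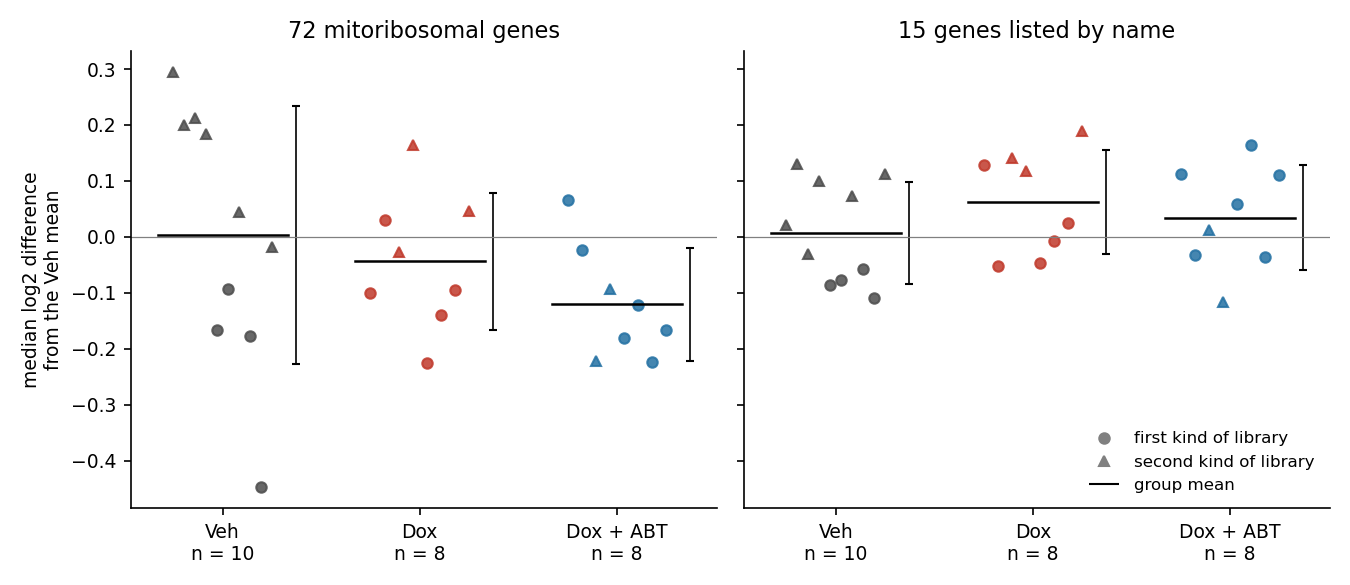
The median log2 difference from the Veh mean over the 72 mitoribosomal genes and over the 15 listed genes in each rat, with circles and triangles for the first and second kind of library, group means as lines and bars of 1 SD on either side. In Veh the mitoribosomal medians of the first kind (-0.45 to -0.09) all lie below those of the second (-0.02 to 0.30).

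Within 1 kind of library the direction of the medians differed. Among first-kind libraries the median over the 72 genes was 0.11 between Dox and Veh (56 higher) and 0.11 between Dox + ABT and Veh (61 higher). Among second-kind libraries it was -0.12 (55 lower) and -0.33 (68 lower). With the kind as a covariate the medians were -0.01 and -0.05, and with the cytosolic ribosomal share of each library as a covariate 0.006 and 0.01. Whether the kind of library made these differences was not tested.

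Calls within a kind differed as well. Between Dox and Veh, 1 member (Mrpl57) passed p under 0.01 in the first kind, against 4.67% of genes, and 0 in the second, against 3.49%. Between Dox + ABT and Veh, Mrpl20 and Mrps21 passed in the first kind, both higher, where 1.08% of genes passed and 0.539% passed higher. In the second kind 19 members passed, where 12% of genes did, and 18 of them were lower, where 7.63% of genes passed lower. Ppargc1a was the 1 higher member. That fit rests on 2 Dox + ABT rats, of which Dox + ABT 3 lay at the border between the kinds. Between Dox and Dox + ABT 0 members passed in the first kind, against 6.03% of genes, and 5 in the second (Mrpl18, Twnk, Mrps18c, Mrps9 and Mrps18b), against 5.95%.

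**Figure D4:**
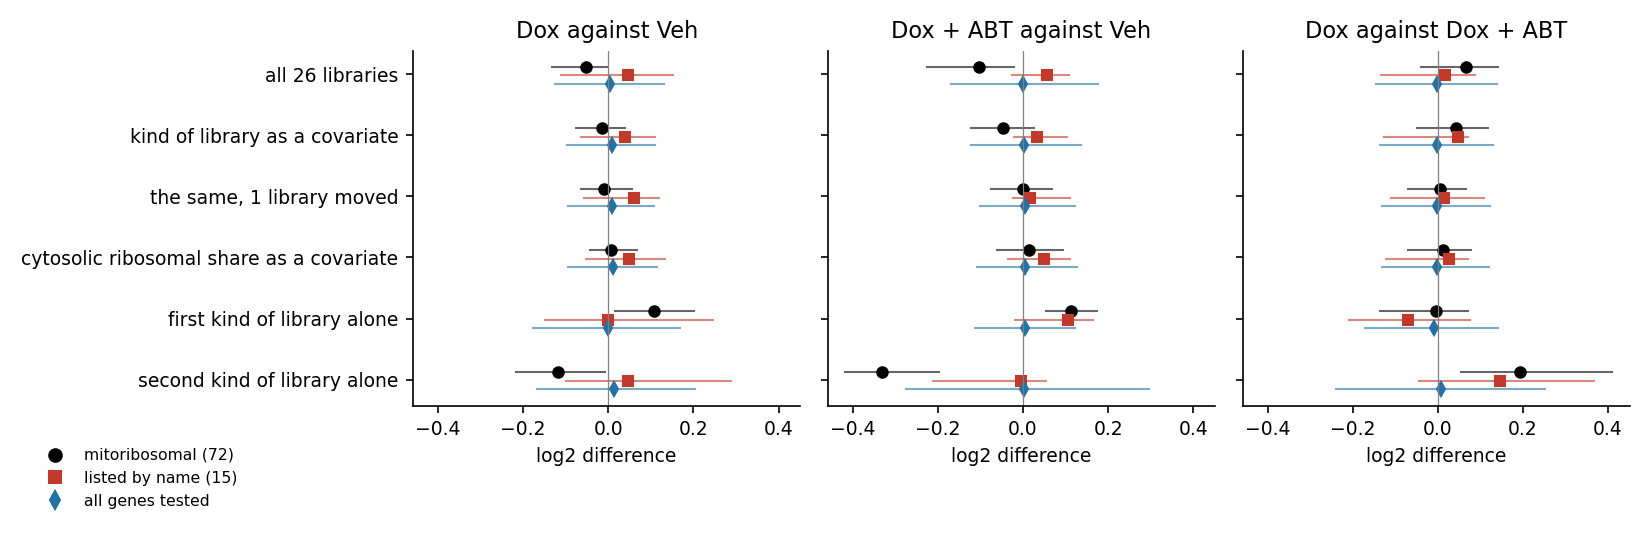
Medians of the log2 difference over 72 mitoribosomal genes, the 15 listed genes and all genes tested, with lines for the middle 50% of genes, in 6 fits and 3 comparisons. The mitoribosomal median between Dox + ABT and Veh runs from -0.33 in the second kind of library to 0.11 in the first, while the median of all genes stays near 0.

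A set of 4 members, picked after their values were seen, separated the 9 second-kind Veh and Dox libraries from the other 17. Mrpl18 lay at 730 to 962 against 351 to 541, and Mrps18c at 268 to 395 against 159 to 220. Mrpl23 lay at 398 to 612 against 185 to 368, and the helicase Twnk at 1153 to 2958 against 550 to 1077. All 4 were higher in the 9 libraries, and 2.23% of all genes tested separated them in either direction (1.70% higher). The second-kind Dox + ABT rats were counted among the 17 when these 4 genes were picked. Their place in the low set was thus fixed by the choice and is no separate result.

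The spread between rats set what could be seen. The median SD within groups was 0.26 on the log2 scale over the 87 members and 0.31 over all genes, from 0.12 for Mrps2 to 1.15 for Mrpl1. Mrps2, a protein of the small subunit, had a log2 difference of -0.005 ± 0.065 between Dox and Veh (limma, p = 0.943). Mrpl1, at 1.34 to 97.2 normalized counts in Veh, had one of 0.35 ± 0.50 (limma, p = 0.495).

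The genes for mtDNA upkeep and transcription showed no shared direction. The 15 listed genes had a median log2 difference of 0.05 between Dox and Veh (8 higher), 0.06 between Dox + ABT and Veh (10 higher) and 0.02 between Dox and Dox + ABT (8 higher), and 0 of the 15 passed p under 0.01 in any of the 3 comparisons, where 2.87%, 7.84% and 4.03% of all genes did. Over 15 genes a count of 0 is near these shares.

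Of the transcription machinery, Tfb2m, which opens the promoters of mtDNA, ranged from 150 to 206 with a median of 192 in Veh, from 186 to 261 with a median of 209.7 in Dox and from 180.2 to 230.0 with a median of 197 in Dox + ABT. Of the 8 Dox rats 6 lay above the Veh median, with a log2 difference of 0.21 ± 0.08 (limma, p = 0.0206, adjusted p = 0.426), and of 0.24 ± 0.08 with a covariate for the kind of library (limma, p = 0.00616). Tfam, the packaging protein of the nucleoid, ranged from 273 to 451 with a median of 342 in Veh, from 295 to 449 with a median of 355 in Dox and from 321 to 431 with a median of 339 in Dox + ABT. The 3 groups overlapped, with log2 differences from Veh of 0.07 ± 0.10 (limma, p = 0.460) and 0.00 ± 0.10 (limma, p = 0.999). The RNA polymerase Polrmt had log2 differences from Veh of 0.19 ± 0.17 (limma, p = 0.266) and 0.20 ± 0.17 (limma, p = 0.241). The Dox difference of Polrmt was 0.36 ± 0.14 within the first kind of library (limma, p = 0.0199), with 779.7 to 935 normalized counts in Dox and 562 to 873 in Veh, and -0.26 ± 0.18 within the second (limma, p = 0.175), with 442 to 485 and 393 to 669, and the difference between the kinds was not tested. Tfb1m, which methylates the small ribosomal RNA, had a difference of -0.09 ± 0.09 (limma, p = 0.308) and one of 0.06 ± 0.09 (limma, p = 0.532).

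Of the replication machinery, the catalytic polymerase subunit Polg differed from Veh by -0.14 ± 0.10 in Dox (limma, p = 0.144) and by -0.01 ± 0.10 in Dox + ABT (limma, p = 0.888), and its accessory subunit Polg2 by -0.07 ± 0.19 and 0.07 ± 0.19. Twnk, the helicase, ranged from 550.1 to 1859 with a median of 1214 in Veh, from 623 to 2958 with a median of 701 in Dox and from 647 to 1077 with a median of 710.4 in Dox + ABT. In Veh and in Dox every library of the second kind lay above every library of the first, and all 8 Dox + ABT rats lay below the Veh median. The log2 difference of Dox + ABT from Veh was -0.63 ± 0.27 (limma, p = 0.0277, adjusted p = 0.175) with all rats, -0.08 ± 0.11 within the first kind of library (limma, p = 0.466) and -0.79 ± 0.25 within the second (limma, p = 0.00699). Twnk and Mrpl43 overlap by 368 bases in GRCr8. The single-strand binding protein Ssbp1 differed by 0.18 ± 0.16 in Dox (limma, p = 0.262) and by 0.11 ± 0.16 in Dox + ABT (limma, p = 0.499), and the exonuclease Mgme1 by -0.18 ± 0.22 (limma, p = 0.432) and 0.00 ± 0.22 (limma, p = 0.987).

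Doxorubicin is a poison of topoisomerase II, and the listed topoisomerases are type I enzymes. Top3a, which separates linked mtDNA circles and also acts in the nucleus, ranged from 41.8 to 67.9 with a median of 55.5 in Veh, from 62.6 to 90.1 with a median of 70.8 in Dox and from 37.0 to 107 with a median of 61.7 in Dox + ABT. All 8 Dox rats lay above the Veh median with a small overlap of the ranges, and the log2 difference was 0.42 ± 0.15 (limma, p = 0.0112, adjusted p = 0.361). By transcript row, 2 of 108 member rows passed p under 0.01 between Dox and Veh, against 2.36% of all rows. They belonged to Top3a and Mrpl57. The Top3a row was also the 1 member row without overlap of Dox and Veh, against 0.0198% of all rows, with 34.5 to 51.1 in Veh and 53.3 to 83.8 in Dox (0.53 ± 0.18, limma, p = 0.00561). Its other row, at lower levels, differed by 0.03 ± 0.49 (limma, p = 0.952). Top1mt, the topoisomerase found in mitochondria alone, differed by -0.13 ± 0.12 in Dox (limma, p = 0.291) and by -0.15 ± 0.12 in Dox + ABT (limma, p = 0.236).

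**Figure D5:**
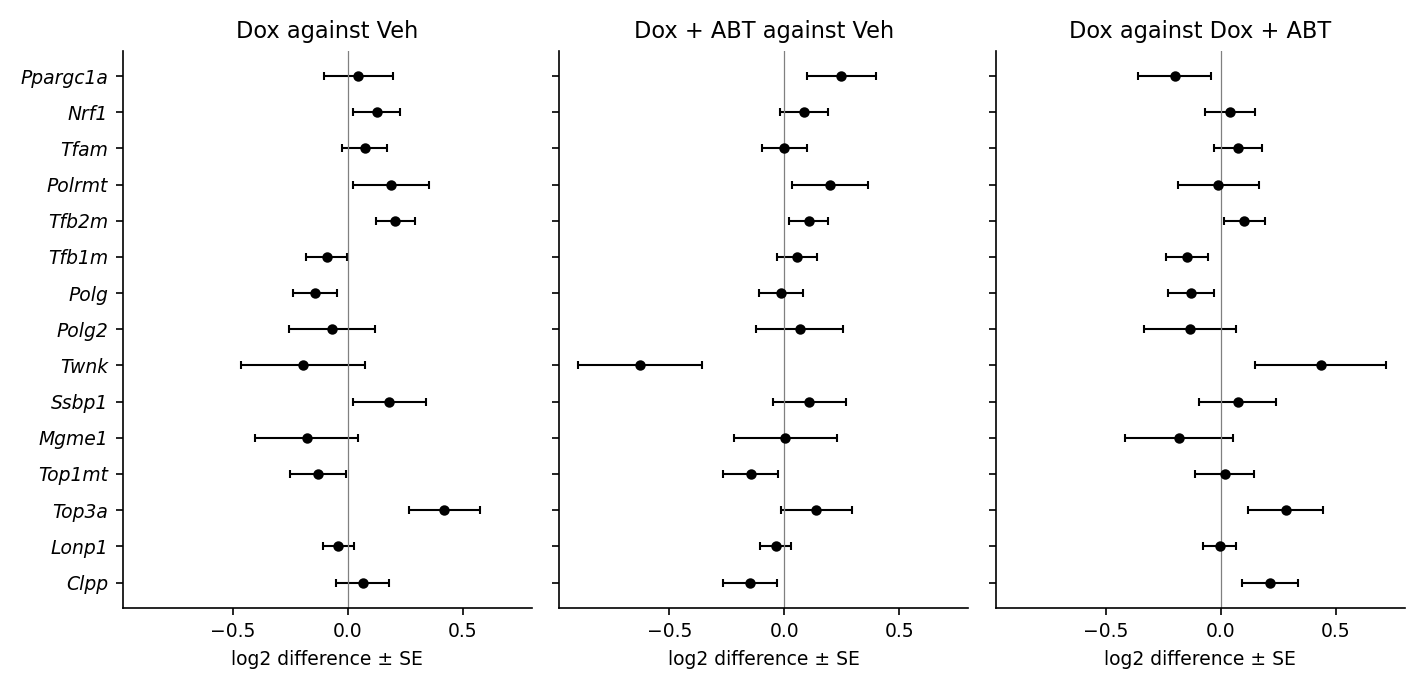
Log2 differences of group means with their SE (limma, all 26 rats) for the 15 listed genes in 3 comparisons. Twnk lies at -0.63 between Dox + ABT and Veh and Top3a at 0.42 between Dox and Veh, and neither passed p under 0.01.

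The matrix proteases differed little. Lonp1, which degrades Tfam among other substrates, had a log2 difference from Veh of -0.04 ± 0.07 in Dox (limma, p = 0.542) and in Dox + ABT (limma, p = 0.591), with a within-group SD of 0.13. Clpp had one of 0.07 ± 0.12 in Dox (limma, p = 0.579) and of -0.15 ± 0.12 in Dox + ABT (limma, p = 0.210), which was 0.18 within the first kind of library and -0.48 within the second. Of the regulators, Ppargc1a ranged from 118 to 262 with a median of 207 in Veh, from 135 to 219 with a median of 205 in Dox and from 160.4 to 271 with a median of 220.1 in Dox + ABT. The ranges overlapped widely, with log2 differences from Veh of 0.05 ± 0.15 (limma, p = 0.759) and 0.25 ± 0.15 (limma, p = 0.109), and the second was -0.21 within the first kind of library and 0.74 within the second. Nrf1 had log2 differences of 0.13 ± 0.10 (limma, p = 0.233) and 0.09 ± 0.10 (limma, p = 0.410), and the Dox value was 0.32 within the first kind and -0.17 within the second.

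Other nuclear genes of the pathway were counted by lists. Between Dox and Veh, where 2.87% of all genes passed p under 0.01, 0 genes did in any of 8 lists. The lists held 15 genes taken as translation factors, 24 for mitoribosome assembly and rRNA modification, 6 other mitoribosomal proteins and 22 mitochondrial aminoacyl-tRNA synthetases. A further 17 genes served processing and decay of mitochondrial RNA and 21 nucleotide supply, repair and the nucleoid. The last lists held 16 proteases and chaperones and 15 regulators of biogenesis. The medians of these lists ran from -0.05 to 0.05. Between Dox + ABT and Veh, Mrm1, which methylates the large ribosomal RNA, rose by 0.49 ± 0.12 (limma, p = 0.000234) and the assembly gene Ngrn by 0.27 ± 0.07 (limma, p = 0.000387), while the methylase Mrm2 fell by 0.81 ± 0.25 (limma, p = 0.00323). Among tRNA synthetases Pars2 fell by 0.49 ± 0.12 (limma, p = 0.000366) and Hars2 rose by 0.28 ± 0.09 (limma, p = 0.00335).

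In the same comparison the mitoribosomal protein Gadd45gip1 had a log2 difference of -0.44 and Aurkaip1 one of 0.31, the nucleotide carrier Slc25a4 one of -0.34, the protease subunit Afg3l2 one of 0.24 and the prohibitin Phb one of -0.39. Fastkd1, of the list for mitochondrial RNA, stood at 0.56, and the regulators Perm1 and Prkaa1 at 0.83 and 0.35. These 8 passed p under 0.01 (limma, p from 0.00241 to 0.00955). Of the 15 genes on the list of translation factors 0 passed, and the smallest p on that list was that of Mief1 (limma, p = 0.0461). In all, 13 of the 136 genes of the 8 lists passed (9.56%), where 7.84% of all genes did. With a covariate for the kind of library 5 of the 13 passed (Mrm1, Ngrn, Mrm2, Pars2 and Perm1), and the p of the other 8 ran from 0.0114 for Hars2 to 0.0385 for Aurkaip1 (limma). Within the first kind the log2 difference of Phb was -0.005 (limma, p = 0.970) and that of Slc25a4 -0.02 (limma, p = 0.870). Between Dox and Dox + ABT, Dhx30 (0.20), Noa1 (0.25), Sars2 (0.30) and Tbrg4 (0.31) were higher in Dox, where 4.03% of all genes passed, and 0 genes passed in the lists that hold none of these 4.

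The 13 mRNAs encoded by mtDNA, which the mitoribosome translates, had log2 differences below 0 for all 13 in Dox and in Dox + ABT against Veh, with medians of -0.57 and -0.60. Mt-co2, a subunit of cytochrome c oxidase, was the 1 that passed p under 0.01, at -0.71 ± 0.26 in Dox (limma, p = 0.00953) and -0.76 ± 0.26 in Dox + ABT (limma, p = 0.00612). With a covariate for the kind of library neither passed, at -0.55 (limma, p = 0.0125) and -0.50 (limma, p = 0.0241). Within the first kind Mt-co2 differed by -0.09 (limma, p = 0.684) and -0.18 (limma, p = 0.397), and within the second by -1.03 (limma, p = 0.0110) and -0.80 (limma, p = 0.0671). Their share of normalized counts ranged from 6.11% to 17.1% with a median of 12.9% in Veh, from 7.03% to 12.99% with a median of 7.71% in Dox and from 6.05% to 16.2% with a median of 8.27% in Dox + ABT. The groups overlapped, and two-sided exact permutation tests of the log2 share over rats gave p = 0.0521 for Dox against Veh, 0.120 for Dox + ABT against Veh and 0.722 between them. The share moved with the kind of library, at 6.05% to 13.04% in the first and 8.59% to 17.1% in the second. Within the first kind the exact permutation p was 0.429 and 0.581 for the comparisons with Veh, and within the second 0.0714 and 0.714.

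Some markers of glia differed between the groups beside these results. Between Dox and Veh, 3 of 5 astrocyte markers were lower (Gfap at -0.75, Aqp4 and Aldh1l1 at -0.43), 2 of 5 microglia markers (Aif1 at -0.61 and Cx3cr1 at -0.64) and 1 of 4 endothelial markers (Slco1c1 at -0.74), while Cpne7, 1 of 5 markers of CA fields, was higher at 0.54 (all p under 0.01 by limma). The other members of these lists did not pass. By the sign of the difference, 2 astrocyte markers, 1 microglia marker and 2 endothelial markers were on the higher side in Dox, with list medians of -0.43, -0.37 and -0.09. The other 4 CA field markers were on the lower side, the median of that list was -0.05, and its sum was 2356 to 8720 normalized counts in Veh and 2821 to 7365 in Dox. The summed level of the 5 astrocyte markers was 36226 to 56558 normalized counts in Veh and 29841 to 37275 in Dox, and that of the 5 microglia markers 2900 to 5148 and 2712 to 4164. Between Dox + ABT and Veh, Aldh1l1 (-0.47) and Csf1r (-0.48) were lower, with medians of 0.02 over the astrocyte list (3 of 5 on the higher side) and -0.31 over the microglia list (0 of 5), and astrocyte sums were 34806 to 50607 in Dox + ABT. Choroid plexus markers summed to at most 351 normalized counts in any rat, with Kl, Folr1 and Kcnj13 under a mean of 5. The 4 red cell genes summed to 2327 to 25997 in Veh, 3608 to 128552 in Dox and 3172 to 11576 in Dox + ABT, and 0 passed p under 0.01, with all 4 higher in Dox than in Veh (median log2 difference 0.97). With a covariate for the kind of library Alas2 passed, at 1.61 between Dox and Veh (limma, p = 0.000522) and at 1.22 between Dox and Dox + ABT (limma, p = 0.00832). The part of these cells in the differences of the members was not tested.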

How the data were processed

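RNA-seq of the DG of 26 rats was used, with groups and rat numbers taken from the sample labels. The authors selected poly(A) RNA, sequenced it on an Ion Proton, aligned reads to rn6 with STAR 2.5.3a in Partek Flow and divided estimated counts by Median Ratio factors. The deposited values are this normalized count signal for 24012 transcript rows, not raw reads. Between 75.7% and 78.8% of low values were whole multiples of 1 read (tolerance 0.02), so reads were not recovered, and limma took the place of the DESeq2 test that the authors used.

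Rows of a gene ID were summed (17910 IDs), and genes with a mean of at least 5 were tested on log2(value + 1) with limma 3.58.1 in R 4.3.3 (lmFit, contrasts.fit, eBayes with a variance trend), all 26 rats in 1 fit, two-sided, at an unadjusted p under 0.01 as in the study, with Benjamini-Hochberg adjustment over 15595 genes. This scale understates changes of low genes. Fits within 1 kind of library used only its rats. Estimated depth limits low genes most. No pair of the 26 libraries held identical values, and pairs correlated at 0.950 to 0.986. Shares were compared by exact permutation tests (Python 3.11.15, scipy 1.17.1), and figures drawn with matplotlib 3.10.9. The fit was tested on simulated data.

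Members and gene lists were chosen with earlier results of these data known. Single genes named are the 15 listed genes, mitoribosomal genes past p under 0.01, the 3 with the smallest p per subunit and comparison, the 3 highest and 3 lowest by mean per subunit, and list genes past p under 0.01 or with the smallest p. Mrpl20, Mrpl23, Mrpl51, Mrps9, Mrps21, Mrpl36 and Mrpl53 were named after their values were seen. Alternatives were pseudocounts of 0.5 and 5, no filter, a mean of at least 20, trimmed-mean and quantile rescaling, 2 groups alone, no variance trend, arrayWeights, transcript rows, the replicate block, a covariate for the kind of library, 1 kind alone, and leaving out each rat. Moving Dox + ABT 3 and the ribosomal share as a covariate were chosen after seeing the data. Values of some listed genes are not reported here.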

Additional observations from a re-analysis of the deposited data

Results flagged for a closer look

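Of 117 checks of a member within a group, 8 found a rat that stood apart from the others of its group by the gap to the nearest other rat, where chance gives about 1 in 20. Dox 5 held 3 of them, with Mrpl1 at 84.5 normalized counts (next rat 58.9), the single-strand binding protein gene Ssbp1 at 173 (next 100.2) and Mrpl33 at 9.99 (below the next rat at 46.8). Dox + ABT 4 held Mrpl42 at 571 (next 395) and the helicase gene Twnk at 1077 (next 783). Dox + ABT 1 held Mrpl17 at 1170 (next 1007) and Mrps18c at 220 (next 203). Veh 6 held the topoisomerase gene Top1mt at 213, below the next rat at 272. None of these 8 values belongs to a gene that passed p under 0.01 between groups (limma, all 26 rats).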

How the results depend on the processing

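The number of members past p under 0.01 (limma) between Dox and Veh was 1, and it was 2 with the 2 groups alone, no variance trend, a covariate for the kind of library (also with Dox + ABT 3 moved), the cytosolic ribosomal share as a covariate, or transcript rows. Between Dox + ABT and Veh it was 2, and it was 4 with the 2 groups alone, 1 with the kind or the ribosomal share as a covariate and 0 with Dox + ABT 3 moved. Between Dox and Dox + ABT it was 0, and 1 (Mrps7) with the ribosomal share. With arrayWeights the counts were 21 (0 higher), 35 (2 higher) and 2, where 3150, 5297 and 1612 of all genes passed (20.2%, 34.0% and 10.3%). The replicate numbers do not pair the rats (median correlation of same-numbered rats -0.05 to 0.13), and with the replicate block the counts were 2, 6 and 0. Leaving out 1 rat gave 0 to 4, 1 to 13 and 0 to 2. Without Dox 2 the first count was 0, and without Veh 11 it was 4 and the second 13. The second was 4 without Dox + ABT 1, Veh 5 or Veh 10, and 1 without any of the 10 rats named with Mrpl37; the first was 2 without Dox 5, Dox 9, Veh 10, Veh 12 or Dox + ABT 2, 5 or 12; the third was 2 without Dox + ABT 1 and 1 without Dox + ABT 2. The mitoribosomal median between Dox + ABT and Veh was 0.11 in the first kind of library alone, and Mrpl37 there was 0.0069. Mrpl57 between Dox and Veh was 0.35 with arrayWeights (p = 0.0133). Leave-one-out medians were -0.11 to -0.03, -0.15 to -0.07 and 0.03 to 0.09. The cause of these changes was not tested. Pseudocounts, filters and rescaling kept every count within 1.5 times of its value. Depth limits the low genes Mrpl1, Mrpl33, Polg2 and Mgme1.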
